A study of Mus musculus with 4 samples.

Results

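The genes described here encode the proteins of the cytosolic ribosome. They were the rows of the deposited count table whose symbol is Rpl or Rps, a number and at most a letter and a final l, or Rplp0, Rplp1, Rplp2 or Rpsa. The rule took 82 of the 23240 rows, 32 of the small subunit (Rps names) and 50 of the large subunit (Rpl names). Of these, 79 passed the filter on low counts and were tested, and the other 3 were Rpl3l, Rpl10l and Rpl39l. RNA-seq libraries had been made from the dissociated cortex of mouse embryos at embryonic day 15.5, from crosses of heterozygous Nestin-GFP mice with homozygous DCX-mRFP mice, so every sorted cell came from an embryo with both reporters. Neural progenitor cells (NPCs) were the cells with green fluorescence, driven by Nestin, and neurons were the cells with both colours, red being driven by doublecortin. Each group had 2 duplicate libraries of total RNA, and how many embryos or litters a library holds is not given in the sources used here. Every p-value below rests on these duplicate libraries alone, and the test of single genes pools part of their spread over all genes. That spread may be technical.

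The ribosome is built of a small subunit, which reads the messenger RNA, and a large subunit, which joins amino acids. Its proteins are made in matched amounts, and surplus copies are degraded. Their mRNAs typically begin with a C followed by a tract of pyrimidines (C and T in the DNA), the 5' terminal oligopyrimidine or TOP motif, through which mTOR signalling sets their translation. In the developing cortex, dividing progenitors have a high demand for new ribosomes, and neurons also use ribosomes in their axons and dendrites.

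The libraries held 52611828 to 55615142 counts. Nes, the gene behind the progenitor reporter, was at 103 and 97.8 CPM (counts scaled to one common library size, with TMM factors) in NPCs and 33.1 and 36.4 CPM in neurons, and Dcx was at 468 and 493 CPM in NPCs and 1358 and 1441 CPM in neurons. Of the marker lists, all 7 neuron markers were higher in neurons, and all 8 radial glia and all 4 cycling cell markers were higher in NPCs. The NPC libraries also held more RNA of other cells. Summed endothelial markers were at 191 to 196 CPM in NPCs and 6.51 to 6.82 CPM in neurons (7 of 7 called higher in NPCs). Oligodendrocyte precursor markers were at 170 to 178 and 2.85 to 3.58 CPM (5 of 5), pericyte markers at 206 to 209 and 6.80 to 7.70 CPM (5 of 5), microglial markers at 33.9 to 34.4 and 14.8 to 14.9 CPM (6 of 6), and erythroid markers at 1891 to 2298 and 310 to 316 CPM (7 of 7). None of these markers was at 0 in a library. Their part in the results below was not tested.

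The start sites of the members with the lowest and the highest change that have an entry in the RefSeq promoter table are shown first, because the start of the mRNA is where the TOP motif lies. Each sequence runs from 20 bases before the annotated start to 10 bases from it onward, 5' to 3' on the gene's strand, with build GRCm38.p6. Capitals mark the longest run of C and T where it has at least 5 bases. The first 4 genes were lower in neurons and the last 4 were higher.
Rps27l (chr9:66946066-66946095, plus strand): cctctccaCTCCTCCCCgccgcctctatcc
Rpsa (chr9:120127746-120127775, plus strand): tggctgtgggttatttaaggacgtcatttc
Rpl14 (chr9:120571497-120571526, plus strand): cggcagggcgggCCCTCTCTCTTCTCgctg
Rps10 (chr17:27635235-27635264, minus strand): acgctgcgccgcgcacgCCCCTTCCTTTCC
Rps7 (chr12:28635944-28635973, minus strand): gaagagCTTCCggtttccacccacctactt
Rpl35 (chr2:39005122-39005151, minus strand): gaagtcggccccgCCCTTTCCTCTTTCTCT
Rpl38 (chr11:114668560-114668589, plus strand): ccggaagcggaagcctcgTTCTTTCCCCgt
Rpl10 (chrX:74270796-74270825, plus strand): ctatggttgttacagtggaagataggccgc
Long runs stood at or beside the annotated start of Rpl14 and Rps10, which were lower in neurons, and of Rpl35 and Rpl38, which were higher. Rpsa and Rpl10 have no such run in these 30 bases, and any other annotated start is not shown.

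Over the whole family, 62 of the 82 genes had an entry, with 74 entries in all. A match at any entry of a gene was counted. A C followed by C or T to a run of at least 8 bases, searched on the gene's strand within 50 bases of an annotated start, was found for 52 of the 62 (83.9%), against 32.0% of the 27025 genes in the promoter table. It was found for 20 of 22 genes called lower in neurons, 4 of 4 called higher and 26 of 33 tested and not called. The letters CCGGAAG, known from sites of ETS factors, or CTTCCGG on the other strand, were found in the 300 bases of 26 of the 62 (41.9%), against 9.93% of all genes in the table. They were found for 9 of the 22 genes lower in neurons, 3 of the 4 higher and 13 of the 33 not called. A CTTCCGG match can share bases with a run of C and T. Annotated starts can lie some bases from the main start of transcription, so the match describes these windows alone.

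Neurons and NPCs were compared to see how these genes differ between progenitors and young neurons. Ribosomal protein genes differed little between the groups, and few were called higher in neurons. Of 79 members, 30 were lower in neurons and 4 were higher (edgeR's quasi-likelihood test, Benjamini-Hochberg adjusted p under 0.05 over all genes tested). The share called was 43.0%, where 72.6% of all 15292 genes tested were called, 36.9% as lower and 35.8% as higher in neurons. The 30 lower members were thus near the share of all genes, and the 4 higher were far under it. Genes higher in neurons made up 11.8% of the members called and 49.2% of all genes called. The median log2 change of the members was -0.11, or -7.31%, and that of all genes tested was -0.02. Changes ranged from -0.72 for Rps27l to 0.30 for Rps7, with a median standard error of 0.06. Of the 79 members, 75 had a log2 change of under 0.32 in size (94.9%, against 36.3% of all genes tested), and none had one of 1 or more. The 4 beyond 0.32 were Rps27l, Rpsa, Rpl8 and Rpl14. The 95% interval of the change lay within 0.32 of 0 for 52 members and within 0.58 for 77, with Rps27l and Rpsa outside. Of the 15292 genes tested, 2802 and 6070 had such intervals. Each interval was set gene by gene, and the members shifted together between duplicates (below), so they do not count as independent. Both neuron libraries lay below both NPC libraries for 29 members and above them for 6, where 86.0% of all genes tested had groups that do not overlap, 44.0% with neurons below and 41.9% with neurons above. Since these are bulk libraries, fewer cells with a transcript and less of it per cell cannot be told apart.

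**Figure D1:**
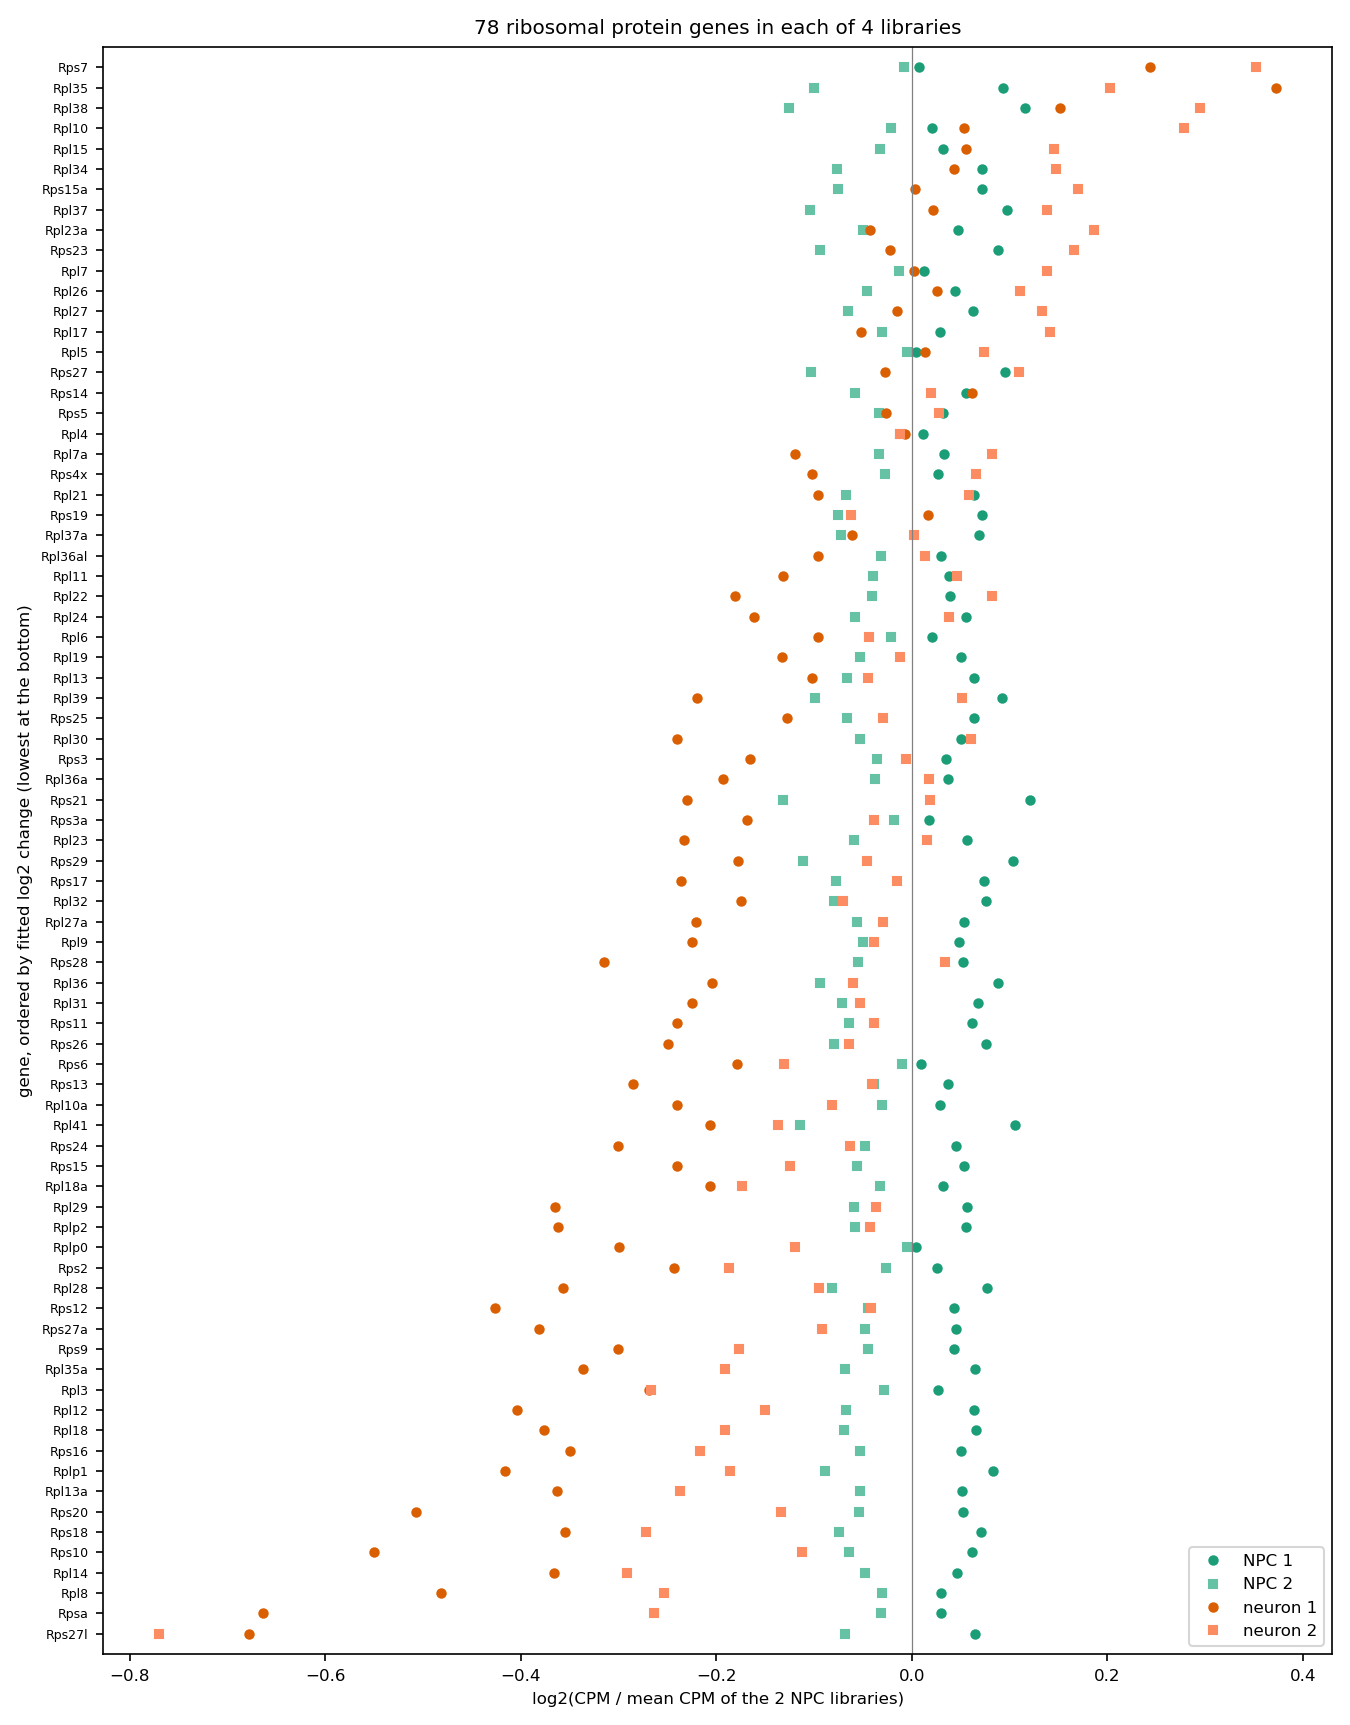
Level of 78 tested ribosomal protein genes in each library, as the log2 ratio of its CPM to the mean of the 2 NPC libraries (x axis), with genes ordered by their fitted change (y axis). Neuron 1 (dark orange circles) lies leftmost for 57 of 78 genes, and Rps27l and Rpsa at the bottom lie apart from the rest. Over all genes tested, neuron 1 was the lowest library for 25.8%.

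The 82 genes made up 3.48% and 3.26% of all counts in NPCs and 2.59% and 2.84% in neurons. The groups did not overlap, at 3.37% ± 0.15 and 2.72% ± 0.175 (SD, n = 2), and the neuron share was 19.3% lower. An exact permutation test, two-sided, gave p = 0.333, which is the smallest p that 2 libraries against 2 allow. The small subunit genes were at 1.37% ± 0.0622 of counts in NPCs and 1.08% ± 0.077 in neurons, and the large subunit genes at 2.00% ± 0.0878 and 1.63% ± 0.0975 (SD, n = 2, exact permutation p = 0.333 for each). This share depends on what the rest of the library holds, and the CPM values, which are scaled with TMM, showed a smaller difference. With library size as the only scaling, the median log2 change was -0.32 for the members and -0.23 for all genes, and 69 members were lower in neurons and 0 higher, where 49.8% of all genes were lower and 25.1% higher (74.9% in either direction). With upper-quartile factors 51 were lower and 2 higher, where 43.0% and 30.1% of all genes were (73.2% in either direction). The distance between the 2 medians was -0.09 with each of TMM, DESeq2 size factors, upper-quartile factors and library size alone. A scaling shifts all genes nearly alike, so this distance could not move and is no sign of stability. With a filter of at least 5 CPM in 2 libraries it was -0.14. Without NPC replicate 1 or 2 it was -0.04 and -0.16, and without neuron replicate 1 or 2 it was -0.01 and -0.18.

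The duplicates of each group differed from each other in these genes, nearly all in one direction. In NPCs, the library of duplicate 1 was above that of duplicate 2 for 79 of 79 members, with a median log2 ratio of 0.11 and single ratios from 0.01 for Rplp0 to 0.25 for Rps21. In neurons, duplicate 2 was above duplicate 1 for 74 of 79, with a median of 0.16. The 5 exceptions were Rpl35, Rps27l, Rps19, Rps14 and Rpl4. Over all genes tested, the NPC ratio had a median of -0.01 and the neuron ratio one of 0.00, and 47.0% and 50.3% of genes were higher in the same libraries. Members had a median size of change between groups of 0.13 and a median gap between the neuron duplicates of 0.16, and for 50 of the 79 the gap between neuron duplicates was the larger of the 2. The widest gaps were those of Rps10, at 0.44, and Rpsa, at 0.40.

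**Figure D2:**
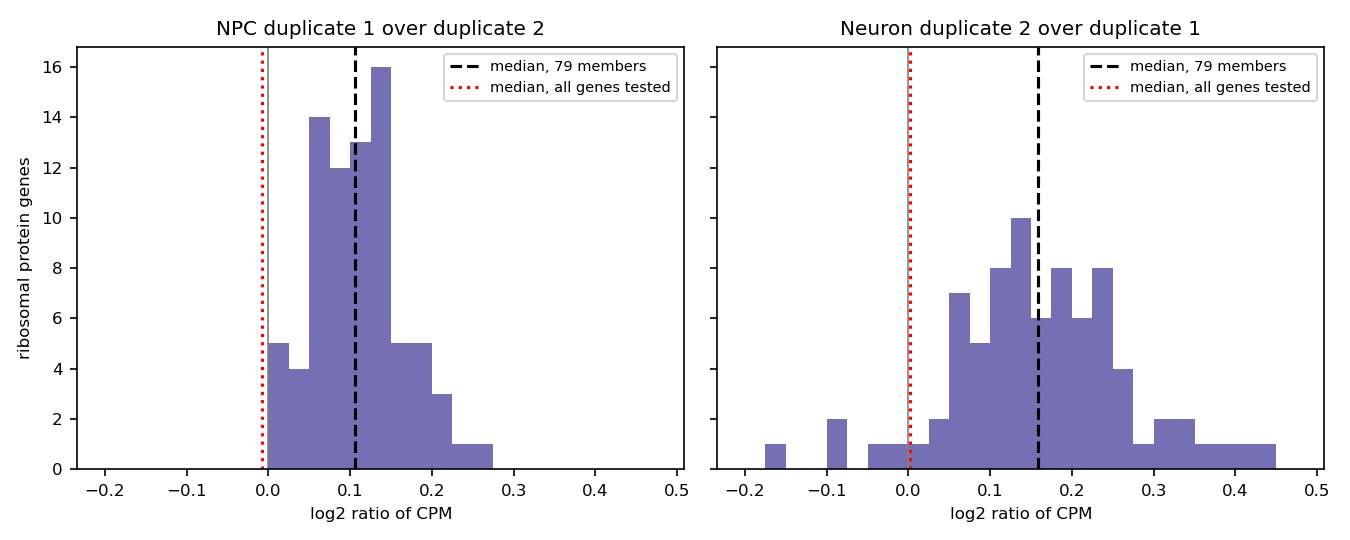
Histograms of the log2 ratio of CPM between duplicates (x axis) over 79 ribosomal protein genes (y axis, number of genes), for NPC duplicate 1 over 2 (left) and neuron duplicate 2 over 1 (right). The dashed medians are 0.11 and 0.16, and the dotted medians of all genes tested lie at about 0.

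Values of other genes moved with these gaps in part. Genes with a principal transcript of up to 1000 bases in GENCODE M21, ribosomal protein genes left out, numbered 702. They had a median log2 ratio of 0.07 for NPC duplicate 1 over duplicate 2, in the direction of the ribosomal protein genes, and one of -0.05 for neuron duplicate 2 over duplicate 1, against their direction. Their median change between groups was -0.07. The median transcript length of the members was 780 bases. Summed erythroid markers were at 2298 CPM in NPC duplicate 1 and 1891 CPM in duplicate 2, and at 316 and 310 CPM in neurons. The part of transcript length and of these cells in the gaps was not tested. Mitochondrial ribosomal proteins, which are encoded in the nucleus and serve the separate ribosome of the mitochondrion, had 59 of 76 genes higher in NPC duplicate 1, the direction of the cytosolic genes, and 18 of 76 higher in neuron duplicate 2, against it.

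The count of members called depended on which libraries were used. Without neuron replicate 1, 21 members were lower in neurons and 16 higher, with a median of -0.03, where 35.7% and 35.6% of all genes were lower and higher (71.3% in either direction). Without neuron replicate 2, 56 were lower and 3 higher, with a median of -0.20, where the shares of all genes were 36.2% and 35.6% (71.8% in either direction). Without NPC replicate 1, 13 were lower and 3 higher, with a median of -0.05, where 32.4% and 30.8% of all genes were lower and higher (63.2% in either direction). Without NPC replicate 2, 31 were lower and 1 higher, with a median of -0.18, where the shares of all genes were 32.1% and 30.7% (62.7% in either direction). Of the 30 members lower in neurons, 11 were called in the same direction in the reported fit and in each of its 13 alternatives. Among these were Rps27l, Rpsa, Rpl8, Rpl14, Rps18, Rpl13a, Rplp1, Rps16, Rpl18 and Rpl3, of which Rps18, Rps16 and Rpl18 were picked out after their values were seen, with changes of -0.31 ± 0.06, -0.28 ± 0.06 and -0.28 ± 0.07. None of the 4 genes higher in neurons was called in each of these fits. Among the fits, upper-quartile factors and library size only moved the median of all genes to -0.12 and -0.23. That makes a call of lower easier to keep and a call of higher easier to lose, so the 2 directions cannot be compared on this count. How many of all genes kept a call in each fit was not counted, so 11 of 30 has no share to stand beside.

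**Figure D3:**
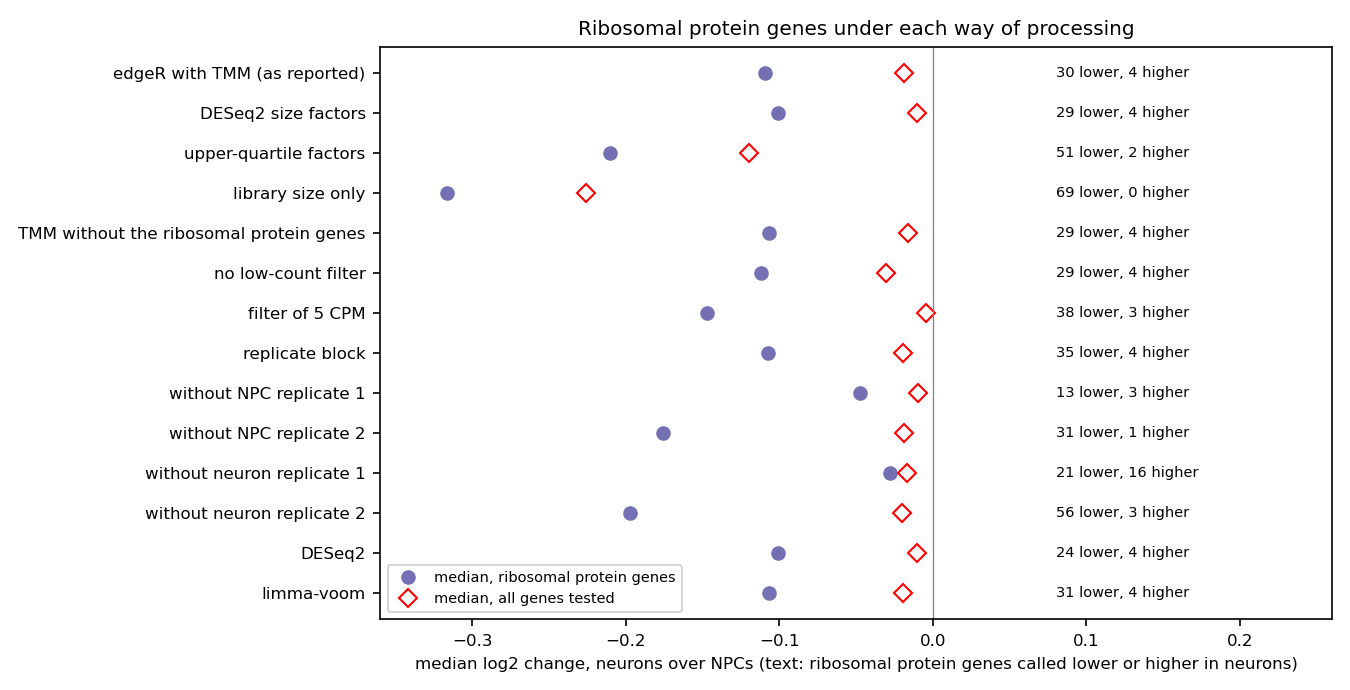
Median log2 change of neurons over NPCs (x axis) for ribosomal protein genes (filled circles) and all genes tested (open diamonds) under each way of processing (y axis), with the numbers of ribosomal protein genes called. The circles move from -0.32 with library size only to -0.03 without neuron replicate 1.

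Small subunit genes were lower in neurons for 15 of 32 and higher for 1, Rps7, with a median of -0.14. The called share was 50%, beside 72.6% of all genes tested (36.9% lower and 35.8% higher). Rpsa, a protein of the 40S subunit that is also known as the laminin receptor precursor, was at 1073 and 1028 CPM in NPCs and 663 and 875 CPM in neurons. Both neuron libraries were below both NPC libraries, and neuron duplicate 1 was the lowest by far. The log2 change was -0.45 ± 0.09 (adjusted p = 0.00026), and it ranged from -0.66 to -0.25 over the alternatives. With DESeq2 it was -0.44 ± 0.20 (adjusted p = 0.043). Rps10, whose human gene is mutated in some cases of Diamond-Blackfan anemia, an inherited failure of red cell production, was at 187 and 171 CPM in NPCs and 122 and 166 CPM in neurons. Its highest neuron value lay close to its lowest NPC value, and its change of -0.31 ± 0.10 (adjusted p = 0.0075) was lost without neuron replicate 1 (-0.10, adjusted p = 0.0505) and with DESeq2 (adjusted p = 0.23).

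Rps7, which binds the regulator of p53 Mdm2 when not in ribosomes, rose. It was at 585 and 579 CPM in NPCs and 689 and 743 CPM in neurons, with both neuron libraries clearly above, and its change was 0.30 ± 0.06 (adjusted p = 0.00015). With library size only, it was at 0.09 and did not pass (adjusted p = 0.15). Among proteins at the path of the messenger RNA through the small subunit, 3 of 6 genes were lower in neurons (Rpsa, Rps2 and Rps26) and 0 were higher, beside 36.9% and 35.8% of all genes. With DESeq2 size factors 2 of the 6 were lower, beside 5572 of all 15292 genes. With upper-quartile factors 5 were lower and with library size only 6, beside 43.0% and 49.8% of all genes. Rps2, at the entry of the channel, was at 1117 and 1078 CPM in NPCs and 927 and 964 CPM in neurons, a change of -0.21 ± 0.05 (adjusted p = 0.0022). It was lost without NPC replicate 1 (adjusted p = 0.09). Rps3, its neighbour at the entry, was at -0.08 ± 0.06 and was not called (adjusted p = 0.23). Rps26, at the exit, was at 289 and 260 CPM in NPCs and 231 and 262 CPM in neurons. Its groups overlapped, with a change of -0.15 ± 0.07, and its adjusted p of 0.0498 was past the threshold by little and was lost in 6 of the alternatives. Rps14 was at 616 and 569 CPM in NPCs and 618 and 600.2 CPM in neurons, and its change of 0.04 ± 0.06 (adjusted p = 0.53) did not pass.

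Rps6, the substrate of the S6 kinases after which they are named, was at 923 and 910 CPM in NPCs and 810 and 837 CPM in neurons. Neurons were below NPCs in both libraries, with a change of -0.15 ± 0.05 (adjusted p = 0.017), which was lost without either NPC replicate (adjusted p = 0.19 and 0.14). Rps24 had a change of -0.18 ± 0.07 (adjusted p = 0.03) that was lost without NPC replicate 1 (adjusted p = 0.23) and without neuron replicate 1 (adjusted p = 0.3). Rps27a, made as a fusion of ubiquitin with a ribosomal protein, had one of -0.23 ± 0.07 (adjusted p = 0.012) that was lost without the same libraries (adjusted p = 0.097 for each). Rps19, the gene most often mutated in Diamond-Blackfan anemia, was at 755 and 682 CPM in NPCs and 727 and 688 CPM in neurons. Its libraries interleaved, with a change of -0.02 ± 0.06 (95% interval -0.15 to 0.11). Of the 19 members linked to that disease, 5 were lower in neurons (Rps10, Rps24, Rps26, Rpl18 and Rpl35a), 2 were higher (Rps7 and Rpl35) and 12 did not pass, a called share of 36.8% beside 72.6% of all genes. With upper-quartile factors 9 were lower and 2 higher, beside 43.0% and 30.1% of all genes. With library size only 15 were lower and 0 higher, beside 49.8% and 25.1%. Rpl18 and Rpl35a were named after their values were seen.

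Large subunit genes were lower in neurons for 15 of 47 tested and higher for 3, with a median of -0.08. The called share was 38.3%, beside 72.6% of all genes tested (36.9% lower and 35.8% higher). Rpl8 was at 400.4 and 384 CPM in NPCs and 281 and 329 CPM in neurons, a change of -0.36 ± 0.07 (adjusted p = 0.00012). Rpl14 was at 576 and 539 CPM in NPCs and 433 and 456 CPM in neurons, a change of -0.33 ± 0.06 (adjusted p = 6.4e-05). In both genes the neuron libraries were below the NPC libraries, and the group means lay further apart than either pair of duplicates. Rpl13a, also known from a complex that silences mRNAs of inflammation, was at 552 and 514 CPM in NPCs and 414 and 452 CPM in neurons (-0.30 ± 0.06, adjusted p = 0.00028). Rpl3, close to the peptidyl transferase centre where amino acids are joined, was at 1283 and 1235 CPM in NPCs and 1045 and 1046 CPM in neurons (-0.27 ± 0.05, adjusted p = 0.00032). Rpl4 was at 1406, 1383, 1388 and 1383 CPM in the same order of libraries, with a change of -0.01 ± 0.05 and a 95% interval of -0.12 to 0.11. Rpl41, a very short basic peptide, had a change of -0.17 ± 0.07 (adjusted p = 0.029) that was lost without NPC replicate 1 (-0.06, adjusted p = 0.61).

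The stalk, which recruits the GTPases of elongation to the large subunit, was lower in neurons for all 3 of its genes. Of all genes tested, 36.9% were lower. Rplp0, the base of the stalk, was at 1474 and 1465 CPM in NPCs and 1194 and 1352 CPM in neurons, a change of -0.21 ± 0.06 (adjusted p = 0.0072). Rplp1 was at 252 and 224 CPM in NPCs and 178 and 209 CPM in neurons, a change of -0.30 ± 0.07 (adjusted p = 0.0016). Rplp2 was at 203 and 188 CPM in NPCs and 152 and 190 CPM in neurons, a change of -0.19 ± 0.08 (adjusted p = 0.037). The groups of Rplp2 overlapped, and neuron duplicate 2 was above an NPC library. The call of Rplp0 was lost without either NPC replicate (adjusted p = 0.083 and 0.075). That of Rplp2 was lost without NPC replicate 1 (adjusted p = 0.22), without neuron replicate 1 (-0.03, adjusted p = 0.55) and with DESeq2 (adjusted p = 0.33).

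Rpl5 and Rpl11, which form a particle with the 5S rRNA and restrain Mdm2 when ribosome assembly fails, had changes of 0.04 ± 0.05 (95% interval -0.07 to 0.16) and -0.04 ± 0.06 (-0.17 to 0.09). Rpl5 was at 459.6 and 457 CPM in NPCs and 463 and 482 CPM in neurons, and Rpl11 at 277 and 263 CPM in NPCs and 247 and 279 CPM in neurons. Neither passed, and with library size only Rpl5 was at -0.16 and Rpl11 at -0.25, both lower in neurons. At the rim of the tunnel through which the new chain leaves, 1 of 7 genes, Rpl35, was higher in neurons and 0 were lower. Of all genes tested, 35.8% were higher and 36.9% lower. With library size only, 0 of the 7 were higher and 5 lower, beside 25.1% and 49.8% of all genes. Rpl35 was at 462 and 404 CPM in NPCs and 561 and 499 CPM in neurons, a change of 0.29 ± 0.07 (adjusted p = 0.0013), and neuron duplicate 1 was its highest library. The call was lost without NPC replicate 2 (0.20, adjusted p = 0.077) and with library size only (0.08, adjusted p = 0.28). Rpl23a, of the same rim, was at 0.08 ± 0.07 and was not called (adjusted p = 0.32), and without neuron replicate 1 it passed at 0.20.

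Rpl38, whose loss in mice alters the axial skeleton, was at 79.9 and 67.6 CPM in NPCs and 81.9 and 90.4 CPM in neurons. The neuron libraries were the 2 highest, and the lower of them was close to an NPC library. Its change was 0.23 ± 0.07 (adjusted p = 0.012), lost without NPC replicate 2 (0.11, adjusted p = 0.31), with upper-quartile factors (adjusted p = 0.14) and with library size only (0.02, adjusted p = 0.83). Rpl10, an X-linked gene of the large subunit, was at 389 and 378 CPM in NPCs and 398 and 466 CPM in neurons. Its change was 0.17 ± 0.07 (adjusted p = 0.028). The call was lost without NPC replicate 1, NPC replicate 2 or neuron replicate 2 (0.19, 0.15 and 0.06). It was also lost with upper-quartile factors (0.07, adjusted p = 0.35) and with the filter of 5 CPM (0.13, adjusted p = 0.092). With library size only the change was -0.04. Rpl15 and Rpl34 had the next highest changes, 0.10 ± 0.06 and 0.10 ± 0.06, and did not pass (adjusted p = 0.12 and 0.17). Both passed without neuron replicate 1, at 0.16 and 0.16. Rpl15 was at 692 and 662 CPM in NPCs and 704 and 749 CPM in neurons, so its neuron libraries were the highest by a small margin.

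**Figure D4:**
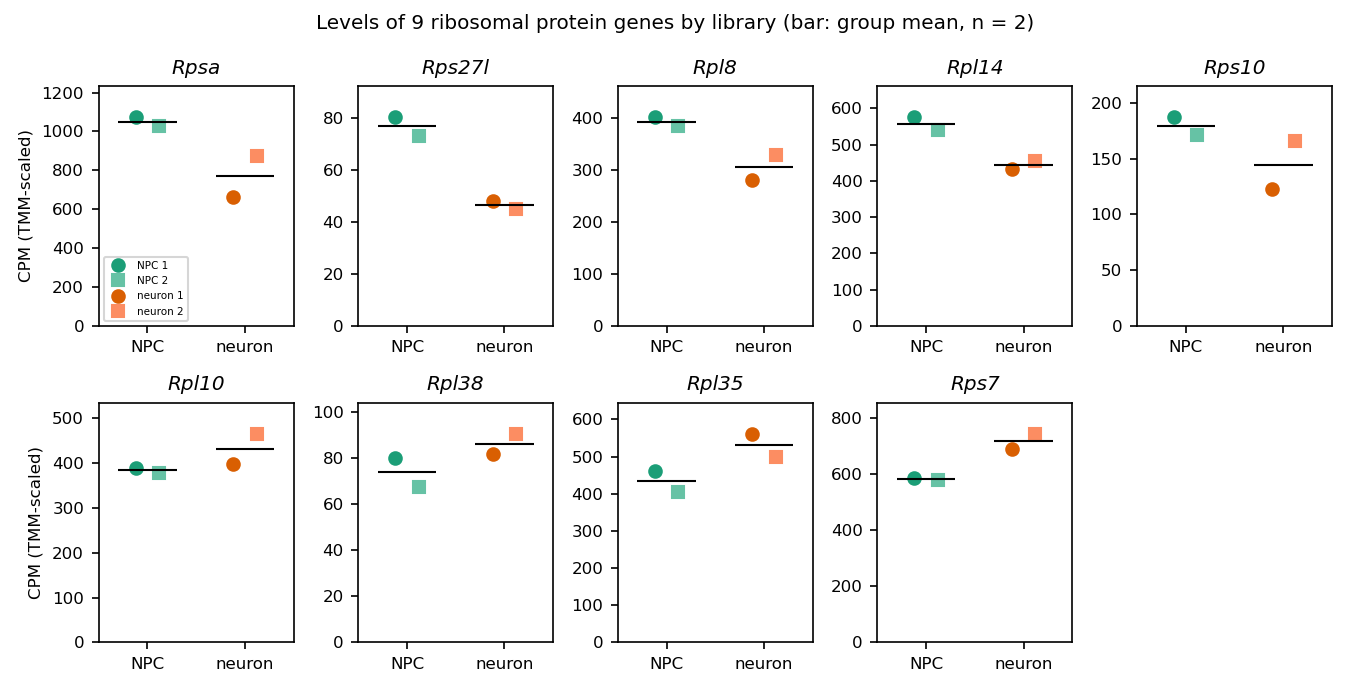
CPM (y axis, from 0) of 5 ribosomal protein genes with a low and the 4 with the highest change in NPC and neuron libraries (x axis), with a bar at each group mean, n = 2. In Rps27l and Rps7 the groups lie far apart beside the duplicates, and in Rpsa and Rps10 neuron 2 lies well above neuron 1.

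Several members have a paralog, and whether it takes their place in the ribosome was not tested. Rps27l, a paralog of Rps27 known as a target of p53, was at 80.3 and 73.3 CPM in NPCs and 48.0 and 45.0 CPM in neurons. Neurons were below NPCs by more than any gap between duplicates, with a change of -0.72 ± 0.06, a fall of 39.4% (adjusted p = 3.0e-08). It ranged from -0.93 to -0.66 over the alternatives, was the lowest change of the family and was opposite in its duplicates to most members, with neuron duplicate 1 the higher. Rps27 was at 267 and 232 CPM in NPCs and 245 and 269 CPM in neurons, which gave 0.04 ± 0.07 (adjusted p = 0.58, not called). The difference between the 2 paralogs was not tested. Rpl22l1, which is outside the naming rule, fell from 89.5 and 82.4 CPM in NPCs to 62.7 and 71.5 CPM in neurons, a change of -0.36 ± 0.07 (adjusted p = 0.00018), and its paralog Rpl22 had one of -0.04 ± 0.07 (95% interval -0.19 to 0.11). Rpl7l1, also outside the rule, had a change of -0.22 ± 0.06 (adjusted p = 0.0045) and Rpl7 one of 0.07 ± 0.06 that did not pass. Rpl36a and Rpl36al were at -0.08 ± 0.07 and -0.04 ± 0.06, and Rpl39 at -0.08 ± 0.08, none of which passed.

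The paralogs Rpl3l, Rpl10l and Rpl39l, known from muscle and testis, had at most 2 counts in a library. Rpl10l was at 0 in all 4 libraries, and a count of 0 allows a level of up to 0.0503 to 0.0614 CPM, for counting error only. Ribosomal protein genes have many processed copies in the genome. GENCODE M21 lists 294 pseudogenes named after them, and how reads that align to several copies were counted is not given in the sources used here. All levels in this family are therefore uncertain. The table held 5 rows named as such copies, and Rpl34-ps1 held 98.4% to 98.9% as many counts as Rpl34 in each library. Rplp2-ps1 held 7.05% to 9.17% of the counts of Rplp2.

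Of the ribosomal proteins whose symbols fall outside the rule, Fau and Gnb2l1 (Rack1) were at -0.11 ± 0.06 and -0.08 ± 0.05 and were not called (adjusted p = 0.11 and 0.2).

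The genes that build ribosomes were called in both directions, those of assembly mostly as lower in neurons. Beside them, 36.9% of all genes tested were lower and 35.8% higher in neurons (72.6% in either direction). The called share was 48.3% for assembly, 72.7% for small nucleolar RNPs and 61.5% for rRNA transcription. Of 58 genes of pre-rRNA processing and subunit assembly, 22 were lower in neurons and 6 higher, with a median of -0.08. Ltv1, an assembly factor of the small subunit, was at 50.1 and 49.6 CPM in NPCs and 25.7 and 25.6 CPM in neurons, a change of -0.96 ± 0.07 (adjusted p = 8.3e-10). Ftsj3 had one of -0.73 ± 0.06, and Npm1, an abundant nucleolar chaperone, one of -0.36 ± 0.05. Of 11 proteins of small nucleolar RNPs, which guide the modification of rRNA, 5 were lower and 3 higher in neurons. Dkc1 and Gar1 of the pseudouridylation complex had changes of -0.70 ± 0.06 and -0.74 ± 0.07, and Nop56 one of 0.16 ± 0.06. The call of Nop56 was lost without NPC replicate 1, NPC replicate 2 or neuron replicate 1 (adjusted p = 0.11, 0.19 and 0.1) and turned to -0.05 with library size only. Of 13 genes of rRNA transcription, 5 were lower and 3 higher. Polr1a, the catalytic subunit of RNA polymerase I, was at 26.2 and 27.5 CPM in NPCs and 15.5 and 15.3 CPM in neurons (-0.80 ± 0.08), and Rrn3, its initiation factor, rose from 123 and 124 CPM to 187 and 177 CPM (0.56 ± 0.05). With library size only the counts lower and higher were 47 and 3 for assembly, 7 and 0 for small nucleolar RNPs and 9 and 2 for rRNA transcription. The shares of all genes were then 49.8% and 25.1%.

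**Figure D5:**
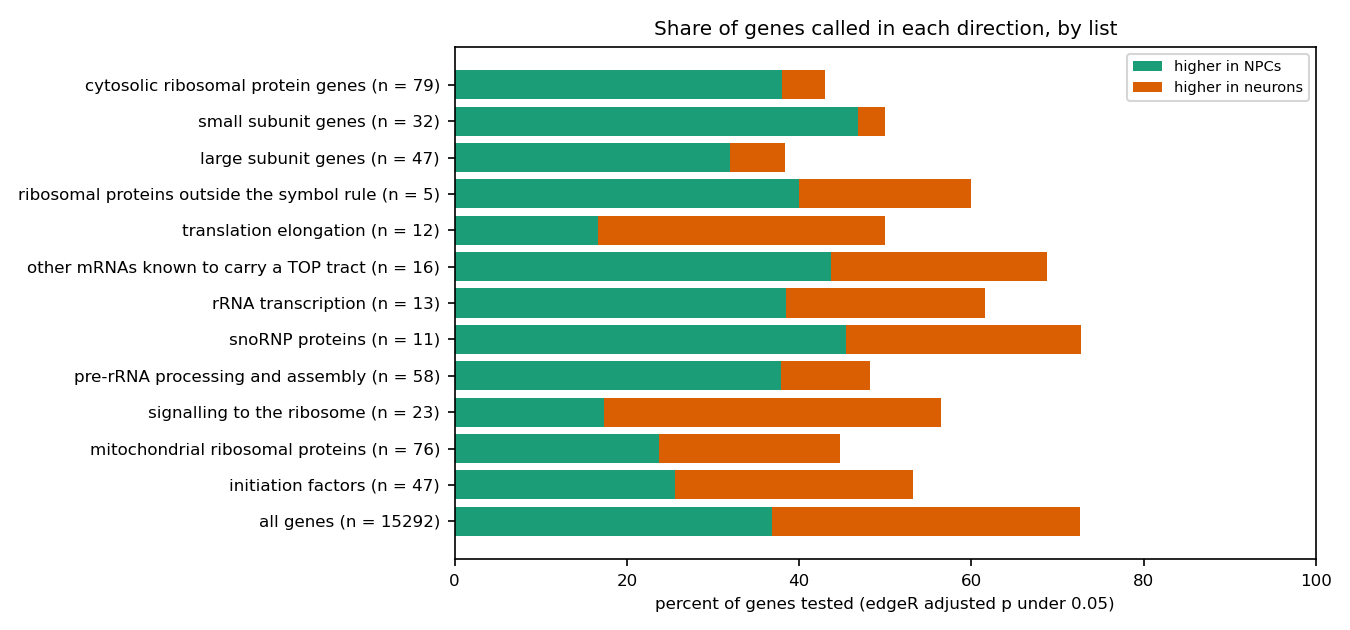
Percent of the genes tested in each list (y axis, with its n) that were higher in NPCs (green) or in neurons (orange) at an edgeR adjusted p under 0.05 (x axis). The cytosolic ribosomal protein genes were called in 43.0%, mostly as higher in NPCs, and all genes tested in 72.6%.

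Among 16 other mRNAs known for a TOP motif, 7 were lower and 4 higher in neurons, with a median of -0.10. For this list and those below, the shares of all genes were 36.9% lower and 35.8% higher (72.6% in either direction). With library size only they were 49.8% and 25.1%. The called share was 68.8% for the TOP list, 50% for elongation, 53.2% for initiation, 56.5% for signalling and 44.7% for mitochondrial ribosomal proteins. The counts of the TOP list were 12 lower and 2 higher with library size only, with a median of -0.30. Leaving out 1 library gave it medians from -0.18 to -0.02. The lowest p-values belonged to Vim, the intermediate filament gene that marks radial glia (-2.51 ± 0.07), and Pabpc1, the poly(A)-binding protein (-0.39 ± 0.05), and Hnrnpa1 was at -0.18 ± 0.05, a call lost without either NPC replicate (adjusted p = 0.12 and 0.1). The elongation list had 12 genes, release factors and a regulatory kinase among them. Of these, 4 were higher and 2 lower in neurons, with a median of 0.03 that turned to -0.18 with library size only. Eef1a2, the elongation factor of mature neurons and muscle, was at 0.243 and 0.268 CPM in NPCs and 2.46 and 3.18 CPM in neurons (3.45 ± 0.30), and Eef1d had a change of -0.64 ± 0.06. Eef1a1, the widely expressed form, was at 6553 and 6471 CPM in NPCs and 5738 and 7032 CPM in neurons. Its neuron duplicates lay on both sides of the NPCs, and its change was -0.03 ± 0.08 (adjusted p = 0.76). Without neuron replicate 1 it was called higher in neurons (0.12) and without neuron replicate 2 lower (-0.17). Of 47 initiation factors, 13 were higher and 12 lower, among them Eif4a2, a helicase of initiation (1.14 ± 0.05), Eif3j (-0.50 ± 0.06) and Eif4g2 (0.16 ± 0.06). The call of Eif4g2 was lost with the duplicate number as a block (adjusted p = 0.065) and without either NPC replicate (adjusted p = 0.38 and 0.1), and its sign turned with library size only (-0.05). In signalling to the ribosome, 9 of 23 genes were higher and 4 lower. Eif4ebp1, a repressor of initiation that mTOR switches off, was at 14.2 and 12.8 CPM in NPCs and 2.81 and 2.40 CPM in neurons (-2.37 ± 0.13), Mycn rose by 0.66 ± 0.05 and Eif4e, the cap-binding factor, by 0.23 ± 0.05. With library size only the counts higher and lower were 3 and 33 for initiation and 5 and 10 for signalling. Of 76 mitochondrial ribosomal proteins, 16 were higher and 18 lower in neurons, with a median of 0.00. The lowest p-values were those of Mrpl39 (-0.55 ± 0.06) and Mrpl54 (-0.57 ± 0.08), and Mrps25 was at 0.26 ± 0.05. With library size only, 3 were higher and 46 lower. Differences between these lists and the cytosolic ribosomal proteins were not tested.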

How the data were processed

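Gene counts of 4 libraries (2 NPC, 2 neuron, grouped by their titles) were analysed. The authors deposited estimated counts per gene, not scaled between libraries. All 88416 values below 10000 were multiples of 1 base of a 101-base read within 0.01 base. TopHat 1.2.0, SAMtools 0.1.18, CASAVA 1.9 and build mm9 are listed, without roles, per the submitters' processing notes. For the counting tool, annotation and strand use the sources used here give nothing, so overlapping and antisense genes are uncertain. Counts were rounded, filtered with filterByExpr (15292 genes kept) and scaled with TMM (NPC factors 1.08 and 1.07, neuron factors 0.928 and 0.933). The groups were compared by edgeR 4.0.16 (R 4.3.3), quasi-likelihood F test, two-sided, Benjamini-Hochberg adjusted, threshold 0.05. CPM and log2 changes (± SE) are on the TMM scale. Each SE was taken as the size of the change over the root of F.

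The members, gene lists and tests were chosen with earlier results of these data known. Members named with values were the stalk genes, Rpsa, Rpl5, Rpl11, paralog pairs, the 6 lowest and 6 highest changes, the 3 with the highest mean CPM, 12 set genes and any member called against the direction of most calls, 35 members in all. A few items that the rule would take are not reported here. Of other lists, the 2 genes with the smallest p and the 1 with the highest mean CPM were named. Sequences are from the RefSeq promoter table (GRCm38.p6), and no coordinates were taken from the count table. Transcript lengths are those of principal transcripts in GENCODE M21. The fit was tested on simulated data. Alternatives were other scalings, DESeq2 1.42.0, limma-voom (limma 3.58.1), other filters, the duplicate number as a block and leaving out each library.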

Additional observations from a re-analysis of the deposited data

How the results depend on the processing

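With 2 libraries a group, each gene has 2 residual degrees of freedom, and edgeR adds 13.9 from the spread of all genes. The precision of a change thus rests mostly on the duplicates of other genes. Depth and replicate number were not compared as limits. Where a library was left out, the lone library was assumed to vary like the other group. Scaling moved the whole family: with upper-quartile factors 53 ribosomal protein genes were called (51 lower and 2 higher in neurons, 25 of the small and 28 of the large subunit), and with library size only 69 (69 lower and 0 higher, 29 and 40), at a median of -0.32. Leaving out 1 library gave 16 to 59 calls, 13 to 56 lower and 1 to 16 higher in neurons, 8 to 26 in the small and 8 to 33 in the large subunit, and medians from -0.20 to -0.03. Over all genes it gave 9773 to 11252 calls. The difference in share of counts was -0.65 percentage points, and -0.65 over the genes tested or -0.61 without the row with the most counts.

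With the replicate block 39 members were called, 35 lower and 4 higher, and 11206 genes in all. Deviations of same-numbered libraries had a correlation of -0.01 across genes, and the labels do not say that the numbers pair the libraries. Among named genes, the block ended the call of Eif4g2 alone (adjusted p = 0.065).

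Some signs turned. With upper-quartile factors these were Rpl5 (-0.0569), Rps27 (-0.0582), Rpl7 (-0.029), Rpl34 (-0.00434), Rps14 (-0.0604), Rpl23a (-0.0241). With library size only these were Rpl5 (-0.16), Rpl10 (-0.0363), Rps27 (-0.16), Rpl7 (-0.14), Rpl34 (-0.11), Rpl15 (-0.11), Rps14 (-0.17), Rpl23a (-0.13), Nop56 (-0.0512), Eif4g2 (-0.0483). Of these, Rpl10, Nop56 and Eif4g2 had been called higher in neurons with TMM. Without a filter on low counts it was Rpl4 (0.000199). Leaving out 1 library turned the sign of Rpl11 (-0.12 to 0.0573), Rpl22 (-0.17 to 0.0929), Rpl36a (-0.18 to 0.0285), Rpl36al (-0.0873 to 0.0249), Rpl39 (-0.21 to 0.0623), Rps27 (-0.0535 to 0.14), Rpl4 (-0.0214 to 0.00198), Rps3 (-0.16 to 0.00518), Rps14 (-0.0156 to 0.10), Rps19 (-0.0941 to 0.0524), Rpl23a (-0.034 to 0.20), Eef1a1 (-0.17 to 0.12). Of the other values of named genes, 566 kept direction and side of the threshold, 21 lost and 16 gained a call, and with a library left out 219, 28 and 13. The cause was not tested.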

Other observations

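Kinases named after the ribosomal protein S6 were set aside by the naming rule and are given here as values, picked out after they were seen. Of 10 such genes tested, 4 were higher in neurons and 1 was lower (edgeR adjusted p under 0.05), where 35.8% of all genes were higher and 36.9% lower. Rps6ka5 (MSK1), a nuclear kinase that acts on histones and CREB, was at 23.0 and 23.3 CPM in NPCs and 52.0 and 49.6 CPM in neurons, which gave a log2 change of 1.14 ± 0.07. Rps6kl1, a little-studied relative, was at 1.42 and 1.84 CPM in NPCs and 13.6 and 13.4 CPM in neurons (3.04 ± 0.14). Rps6ka2 had a change of 0.50 ± 0.06, Rps6kc1 one of 0.23 ± 0.07 and Rps6ka6 one of -0.48 ± 0.06. The call of Rps6kc1 was lost without NPC replicate 2 and with upper-quartile factors or library size only. Rps6kb1 and Rps6kb2, the kinases of S6 itself, had changes of 0.05 ± 0.06 and -0.10 ± 0.08 that did not pass (adjusted p = 0.47 and 0.24).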
